A study of Mus musculus with 42 samples.

Results

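The 10 transcription factors studied here set the effector or resident state of lymphocytes and were followed in mouse uterine tissue-resident natural killer cells (trNK): Prdm1, Nfil3, Id2, Zeb2, Irf4, Irf8, Batf, Zbtb32, Ikzf2 and Maf. They were chosen by name, with no threshold on a measured value but with earlier results of these data known, and make up 10 of the 54353 genes shared by the bulk RNA-Seq libraries and 10 of the 35237 genes of the single-cell matrix. Bulk RNA was read in 34 libraries, 2 per group, from C57BL/6 mice aged 8 to 12 weeks, labelled either C57BL/6 or WT. The trNK were sorted as CD45+NK1.1+NKp46+CD49a+CXCR6- cells from virgin uteri and at gestation days (gd) 6.5 and 8.5. At gd8.5 they were also split by CD55 and 4-1BB into a double low group (trNK-V), an intermediate group (trNK-D) and a double high group (trNK-T).

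According to the study, both culture experiments used trNK-V sorted at gd6.5 and medium with IL-15. In the first, the cells were kept for 3 days without IL-21, with 20 ng/ml IL-21, or with IL-21 and 1 µM Stattic (the unit given in the labels), an inhibitor of STAT3. In the second, they were cultured with or without 20 ng/ml IL-21 and read at 0, 6, 24 and 72 h. The IL-15 dose of the second is given as 10 ng/ml in one label and as 15 ng/ml in another. The single-cell experiment held CD45+NK1.1+NKp46+ cells from virgin and gd8.5 uteri. No source used here states that replicates came from separate mice, so the p-values measure the spread between these samples, which may be technical. Library totals ran from 11862089 to 66468883 counts. The 7 trNK marker genes, among them Itga1 (CD49a), Eomes and Ncr1 (NKp46), were above 0 in every library.

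Natural killer cells are made from Id2- and Nfil3-dependent precursors. Id2 blocks the E proteins that would drive B and T cell fate, and Nfil3 is a basic leucine zipper factor needed early in that lineage. Blimp-1, the product of Prdm1, is a repressor that pushes lymphocytes to a terminal effector state, and in conventional NK cells Zeb2 drives late maturation together with T-bet. Batf dimerises with Jun proteins and recruits Irf4 or Irf8 to composite sites, Zbtb32 is a zinc finger repressor needed for NK cell proliferation in viral infection, Ikzf2 (Helios) is an Ikaros family factor, and Maf (c-Maf) drives Il10 and inhibitory receptors in T cells. IL-21 signals chiefly through STAT3.

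The loci are on mm10, the build used by the authors. Prdm1 lies on chromosome 10 (44437177 to 44528501, minus strand), Zbtb32 on chromosome 7 (30589681 to 30598909, minus strand), Irf8 on chromosome 8 (120736358 to 120756694, plus strand) and Zeb2 on chromosome 2 (44983632 to 45117395, minus strand). Nfil3 (52967209 to 52981073, minus strand) and Irf4 (30749226 to 30766976, plus strand) lie on chromosome 13, and Id2 (25093799 to 25097140, minus strand) and Batf (85686669 to 85709087, plus strand) on chromosome 12. Ikzf2 lies on chromosome 1 (69531214 to 69687245, minus strand) and Maf on chromosome 8 (115682942 to 115707794, minus strand). The sequences below are the 250 bases before a RefSeq transcript start of 3 genes whose values carry most of the results, from RefSeq promoters on GRCm38.p6, the assembly that mm10 names. The stretches of Irf8 and Zbtb32 end at the gene starts given above, and that of Prdm1 lies inside the gene as given above, before the start of a shorter transcript. Capitals mark matches to the STAT motif TTCNNNGAA in Irf8 and to the AP-1 motif TGANTCA, the site of Jun and Batf dimers, in Prdm1.
Irf8, chr8:120736108-120736357, plus strand: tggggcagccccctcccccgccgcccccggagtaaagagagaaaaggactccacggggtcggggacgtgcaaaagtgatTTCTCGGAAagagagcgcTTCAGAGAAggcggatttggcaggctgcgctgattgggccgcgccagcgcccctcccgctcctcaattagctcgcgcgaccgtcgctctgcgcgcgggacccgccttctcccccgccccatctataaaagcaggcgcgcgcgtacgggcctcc
Prdm1, chr10:44458749-44458998, minus strand: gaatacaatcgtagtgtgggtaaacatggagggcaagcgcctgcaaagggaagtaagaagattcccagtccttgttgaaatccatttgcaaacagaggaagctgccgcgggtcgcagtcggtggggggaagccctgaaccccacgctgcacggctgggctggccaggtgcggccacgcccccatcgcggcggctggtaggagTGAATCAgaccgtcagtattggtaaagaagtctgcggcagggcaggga
Zbtb32, chr7:30598910-30599159, minus strand: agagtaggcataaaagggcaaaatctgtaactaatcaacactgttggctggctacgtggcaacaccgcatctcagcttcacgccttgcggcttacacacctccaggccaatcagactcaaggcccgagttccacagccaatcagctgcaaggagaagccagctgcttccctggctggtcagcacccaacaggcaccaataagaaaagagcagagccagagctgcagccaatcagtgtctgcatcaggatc

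Of the 10 genes, 8 had a RefSeq promoter, 13 promoters in all. Both motifs read the same on either strand. TTCNNNGAA was in 3 of the 13 promoters, 1 of Irf8 and 2 of Zeb2 that overlap and share the site, and in 7.01% of 32817 mouse promoters. TGANTCA was in 2 of the 13, 1 each of Prdm1 and Zeb2, and in 6.75% of all. Neither promoter of Zbtb32 held a match to either motif. The Nfil3 motif TTANNTAA (5.43% of all promoters), an interferon response motif (2.97%) and its narrower form at Blimp-1 sites (0.204%) had no match in the 8 genes on either strand. These are matches of letters and were not compared with any binding data.

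The genes fell into 3 levels in sorted trNK, in RPKM, read counts scaled to exon length and library size, which allows comparison between genes. Id2 was highest, from 695 to 1061 RPKM in the 12 uterine libraries. Irf8, Nfil3 and Batf followed, at 42.9 to 205, 15.9 to 121 and 49.6 to 73.3 RPKM. The ranges of these 3 overlapped. Prdm1 stood at 1.03 to 6.97 RPKM, and Zeb2, Irf4, Ikzf2 and Maf stayed at or below 3.06 RPKM in every uterine library. Zbtb32 ran from 0.055 to 110 RPKM. A filter that asks for more than 10 RPKM in both libraries of any group kept 5 of the 10 genes in the uterine experiments (Nfil3, Id2, Irf8, Batf and Zbtb32). Genes past that filter were tested with edgeR, and a call needed an adjusted p under 0.05 and a fold over 2. The low genes were tested in a second fit with the looser filterByExpr rule, which kept all 10.

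**Figure D1:**
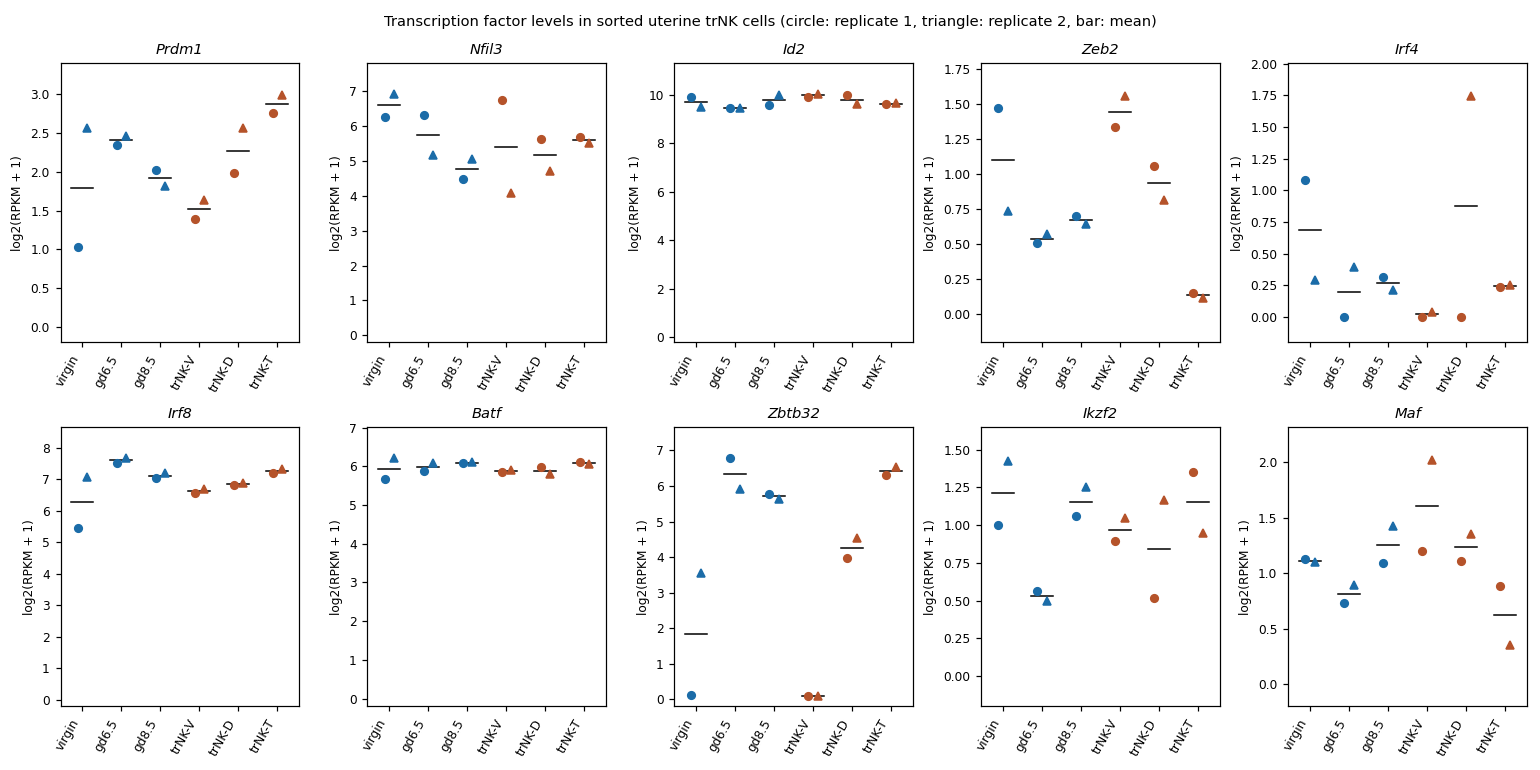
Level of each transcription factor in sorted uterine trNK, as log2(RPKM + 1) on the vertical axis, by gestation stage (blue) and by gd8.5 subset (orange). Each point is 1 library (circle, replicate 1; triangle, replicate 2) and each bar the mean of 2. Zbtb32 is near 0 in both trNK-V libraries and high in both trNK-T libraries, while Zeb2 is lowest in trNK-T.

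The subset comparison asked how these factors differ as CD55 and 4-1BB rise. Zbtb32 went from near absence in trNK-V to a level above that of Batf in trNK-T. It stood at 0.055 and 0.0604 RPKM in trNK-V, 14.6 and 22.3 in trNK-D, and 78.4 and 91.5 in trNK-T. The 3 groups did not overlap, and 36.5% of all genes tested were higher in trNK-T than in trNK-V without overlap. The trNK-V values were 2 reads in each library, so ratios were also taken on summed reads: 319 for trNK-D over trNK-V (95% interval 124 to 1171, counting error only) and 1462 for trNK-T over trNK-V (571 to 5368). Zbtb32 passed the filter only through the subsets in which it is high.

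Zbtb32 was the only one of the 10 genes called in each subset comparison among genes past the RPKM filter. In trNK-D against trNK-V its log2 fold change was 8.26 ± 0.42 (SE, n = 2 per group, edgeR quasi-likelihood, adjusted p = 0.0016). It had the lowest p of all genes tested there, where 0.32% of 4683 genes were called. Under the looser filter it was the only gene called of 14335 (0.00698%). Zbtb32 passed this filter too only through the subsets in which it is high, so its rank and calls are not separate support. In trNK-T against trNK-V it again had the lowest p, at 10.45 ± 0.43 (adjusted p = 0.00027), in a comparison where 21.2% of genes were called. Both SEs against trNK-V, the fold change divided by the square root of F, are narrower than the counting intervals above imply. The trNK-V level rests on 2 reads in each library, so these SEs understate the error. In trNK-T against trNK-D Zbtb32 rose by 2.19 ± 0.26 (adjusted p = 0.018), against 1.75% of genes called. Of these calls, 2 leaned on single libraries. Without trNK-V replicate 1 the adjusted p for trNK-D was 0.058. The trNK-T against trNK-D call was lost without trNK-D replicate 1 (0.054), trNK-T replicate 1 (0.052) or trNK-T replicate 2 (0.14), and with filterByExpr (0.086, where 0.0767% of genes were called). In bulk RNA, a change in the share of cells that express a gene and a change in RNA per cell cannot be told apart.

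Prdm1 and Zeb2 moved in opposite directions from trNK-V to trNK-T. Prdm1 was at 1.63 and 2.11 RPKM in trNK-V, 2.94 and 4.93 in trNK-D, and 5.79 and 6.97 in trNK-T, with no overlap between the 3 groups. Zeb2 was at 1.53 and 1.95 RPKM in trNK-V, 1.09 and 0.759 in trNK-D, and 0.113 and 0.0846 in trNK-T, also without overlap. Both were under the RPKM filter. With filterByExpr, Zeb2 fell by 3.94 ± 0.42 (log2, adjusted p = 0.011) and Prdm1 rose by 1.96 ± 0.41 (adjusted p = 0.037) in trNK-T against trNK-V, so that 3 of the 10 genes were called there, against 6.75% of 14335 genes. With 2 libraries a group, groups without overlap were common: of the genes past the RPKM filter, 36.5% were higher and 38.3% lower without overlap in trNK-T against trNK-V. Prdm1 lost its call when any 1 of the 4 libraries was left out (adjusted p 0.097 to 0.23). Zeb2 kept it without either trNK-V library (0.026 and 0.046) and missed it without trNK-T replicate 1 (0.052) or 2 (0.10).

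Macrophages express much Zeb2 and Maf, and their markers, like these genes, were lowest in trNK-T. The summed level of 10 macrophage markers was 49.0 and 295 RPKM in trNK-V, 269 and 353 in trNK-D, and 18.5 and 15.0 in trNK-T, with 0 to 5 of the 10 genes at 0 in a library. Lyz2 alone gave 19.3 and 269 RPKM in trNK-V, 212 and 303 in trNK-D, and 1.97 and 4.61 in trNK-T. Csf1r, the defining receptor, was at 0 in trNK-V replicate 1, 1.49 RPKM in replicate 2, 1.5 and 3.02 RPKM in trNK-D, and 0 in both trNK-T libraries. The part of macrophage RNA in the Zeb2 difference was not tested. Maf was at 1.29 and 3.06 RPKM in trNK-V and 0.846 and 0.276 in trNK-T, a log2 difference of -1.78 ± 0.71 (filterByExpr, adjusted p = 0.17).

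Irf8 rose in trNK-T by less than 2-fold. It was at 93.7 and 103 RPKM in trNK-V, 113 and 118 in trNK-D, and 147 and 159 in trNK-T, so that the 3 groups did not overlap. Of all genes tested, 36.5% were likewise higher in trNK-T than in trNK-V without overlap. The log2 difference between trNK-T and trNK-V was 0.64 ± 0.15 (adjusted p = 0.021), below the fold asked for a call. Batf and Id2 varied little: Batf was between 54.8 and 68.4 RPKM in all 6 subset libraries, and Id2 between 781 and 1061. Nfil3 was at 106 and 15.9 RPKM in the 2 trNK-V libraries, a spread wider than the difference between any 2 groups.

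Irf4 was near the detection limit in most subset libraries. It was at 0 and 0.0291 RPKM in trNK-V, 0 and 2.35 in trNK-D, and 0.176 and 0.189 in trNK-T. The one high library, trNK-D replicate 2, also held 1698 RPKM of Jchain and 18.0 RPKM of Mzb1, genes of plasma cells, which depend on Irf4. Jchain was at or below 3.46 RPKM and Mzb1 at 0 in the other 5 subset libraries. Without that library trNK-D had no Irf4 read and trNK-V 2 in all, so that no fold can be given. The part of plasma cell RNA in this value was not tested. Ikzf2 was between 0.431 and 1.55 RPKM (104 to 285 reads), with overlapping groups.

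Among genes known to act with or against these factors, those called in trNK-T against trNK-V fell. Of 33 listed partners and antagonists, 9 passed the RPKM filter and 24 were not tested, and in trNK-T against trNK-V 6 of them fell and none rose, where 13.1% of all genes tested fell and 8.05% rose. The median of the 9 was -1.80 on the log2 scale, beside -0.01 over all genes tested. Jun, a partner of Batf, stood at 150 and 260 RPKM in trNK-V and at 26.1 and 15.1 in trNK-T (-3.32 ± 0.37, adjusted p = 0.0032). Junb fell by 3.09 and Zfp683 (Hobit, a Blimp-1 homologue that holds cells in tissues) fell by 3.12. Ikzf3 (Aiolos) fell by 1.80, Irf1 fell by 1.64 and Irf2 fell by 1.17. Batf itself did not show such a difference (0.21 ± 0.17, adjusted p = 0.35). No listed partner was called between trNK-D and either other subset.

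Of 10 listed genes that Blimp-1 represses in lymphocytes, 4 were tested, in a comparison where 13.1% of all genes tested fell. Tcf7 went from 36 and 53.7 RPKM in trNK-V to 3.01 and 0.321 in trNK-T (-4.72 ± 0.86, adjusted p = 0.010), and Fos fell by 3.44 ± 0.72 (adjusted p = 0.015). Myc differed by -0.90 (adjusted p = 0.018), under 2-fold. Of the 2 tested NK maturation genes linked to Zeb2, Klrg1 rose by 1.92 ± 0.17 and Cd27 fell by 4.08 ± 0.42. Of 5 tested receptors linked to Blimp-1 and c-Maf, Ctla4 rose by 3.78 and Havcr2 (TIM-3) by 4.62, while Cd160 fell by 2.65 and Tigit fell by 1.54. Havcr2 was at 0.357 and 4.87 RPKM in trNK-V and at 43.8 and 84.8 in trNK-T. It did not pass the filter through trNK-V, in which it is low. Of 7 tested STAT3 response genes none rose, and Il21r, the IL-21 receptor, fell by 2.31 ± 0.37 and Junb as above.

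The comparison across gestation asked how the factors change from the virgin uterus through early pregnancy. Among the members tested, Zbtb32 had the widest fold from virgin to either gestation day. It stood at 0.0925 and 10.8 RPKM in virgin trNK. It read 110 and 59.1 RPKM on gd6.5, then 53.5 and 49.0 on gd8.5. Both pregnant groups lay above both virgin libraries, and the share of all genes that did so is not given here. The counts of virgin replicate 1 list 55573 genes and those of each other library 54446. The part of that difference in these values was not tested. Between the 2 virgin libraries the reads differed widely, at 5 against 461. With that spread the log2 differences of 3.89 ± 1.46 at gd6.5 and 3.19 ± 1.42 at gd8.5 were not called (adjusted p = 0.13 and 0.38). Each virgin library alone gave a call, for a gene that passed the filter only through the pregnant groups, in which it is high. Without virgin replicate 1, which has the low value, the differences were 2.89 (adjusted p = 0.011) and 2.18 (0.047). Without virgin replicate 2 they were 9.71 (0.00046) and 9.01 (0.00073).

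By edgeR with the RPKM filter 0 of the 5 genes tested were called at gd6.5 (6.17% of 4504 genes), at gd8.5 (0.422%) and between the 2 days (0%). At an unadjusted p under 0.05 there were 1, 1 and 0. Of all 4504 genes, 490, 216 and 262 had such a p with a fold over 2, which was not asked of the members. DESeq2 called 0, 1 and 0 members and limma-voom 1, 0 and 0, and the shares of all genes in those fits are not given here. The stage comparisons share libraries, as do the subset comparisons. Irf8 was at 42.9 and 135 RPKM in virgin, 184 and 205 on gd6.5, then 130 and 146 on gd8.5 (gd6.5 against virgin 1.04 ± 0.48, adjusted p = 0.19). Nfil3 was at 76.3 and 121 RPKM in virgin and at 21.2 and 32.3 at gd8.5, with no overlap, as for 18.1% of genes tested in this direction (-1.94 ± 0.45, adjusted p = 0.17), and it was the 1 gene DESeq2 called (-1.96, adjusted p = 0.00066). Id2 and Batf differed by at most 0.38 in any pair of stages. Among the low genes, Prdm1 in the virgin libraries (1.03 and 4.92 RPKM) spanned both pregnant groups. Zeb2 was at 1.78 and 0.664 RPKM in virgin and at or below 0.629 in pregnancy (gd6.5 -1.43 ± 0.47, adjusted p = 0.20). Ikzf2 was at 1.00 and 1.69 RPKM in virgin, 0.48 and 0.413 on gd6.5, then 1.09 and 1.38 on gd8.5. Its gd6.5 difference from virgin was -1.64 ± 0.46 (adjusted p = 0.16). T cell markers summed to 274 and 47.1 RPKM in the virgin libraries and to 36.7 to 171 in the pregnant ones, and their part in these values was not tested.

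The 3-day culture asked how levels differ with IL-21, and with a STAT3 inhibitor on top of it. No group had the inhibitor without IL-21, so an effect of the inhibitor itself cannot be told apart. Zbtb32 had no read in either library without IL-21, stood at 4.07 and 18.9 RPKM (117 and 601 reads) with IL-21, and again had no read in either library with IL-21 and inhibitor. On summed reads it was at least 344-fold higher with IL-21 than without, and at least 454-fold lower with the inhibitor than with IL-21 alone, taking 3 counts over the group as the floor (counting error only). IL-21 replicate 1 alone, which has the fewer reads, gives at least 118-fold and 156-fold. It did not pass the RPKM filter, because one IL-21 library was under 10. With filterByExpr the adjusted p was 0.40 for IL-21 and 0.16 for the inhibitor. With no filter on counts both were called (adjusted p = 3.8e-07 and 3.0e-07). The share of all genes called in that fit is not given here, so both calls lack a background.

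Irf4 had no read in either library without IL-21 and stood at 2.18 and 0.287 RPKM with it (130 and 19 reads). On summed reads it was at least 71.4-fold higher with IL-21 (counting error only), a bound that rests on IL-21 replicate 1: replicate 2 alone gives at least 17.3-fold. The difference was not called (filterByExpr, adjusted p = 0.62). Prdm1 was at 2.17 and 3.20 RPKM without IL-21, 10.9 and 10.6 with it, and 6.37 and 7.56 with the inhibitor added. The groups did not overlap, as for 10.7% of all genes tested, which were higher with IL-21 without overlap. The log2 difference was 2.19 ± 0.43 for IL-21 (adjusted p = 0.091), -0.53 ± 0.41 for the inhibitor on top of IL-21 (0.55), and 1.66 ± 0.42 for both against neither (0.069). Irf8 was at 7.67 and 19.8 RPKM without IL-21, 49.7 and 75.8 with it, and 34.8 and 19.4 with the inhibitor (IL-21 2.36 ± 0.53, adjusted p = 0.12; inhibitor -1.10 ± 0.51, 0.29). DESeq2 called both for IL-21, Prdm1 at 2.22 (adjusted p = 1.7e-05) and Irf8 at 2.40 (0.00045). Prdm1 passed the filter in this experiment only through the IL-21 group. Irf8 passed it only through the groups given IL-21, with or without inhibitor, in which its mean is higher.

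By edgeR with the RPKM filter, 0 of 5 tested members were called in the 3 comparisons of this culture. The background was 0.289% of 4158 genes for IL-21, 2.96% for the inhibitor on IL-21 and 4.74% for both against neither. At an unadjusted p under 0.05 there were 4, 1 and 5 members. Of all 4158 genes, 298, 665 and 773 had such a p with a fold over 2, which was not asked of the members. DESeq2 called 2, 1 and 2 members and limma-voom 0, 0 and 1, and the shares of all genes in those fits are not given here. Id2 was at 2441 and 2144 RPKM without IL-21, 3337 and 2435 with it, and 891 and 1178 with the inhibitor. The inhibitor group lay below both others (-1.39 ± 0.33 against IL-21, adjusted p = 0.079), and DESeq2 called this (-1.40, adjusted p = 0.0023). Batf was at 35.9 and 57.3 RPKM without IL-21, 81.2 and 83.3 with it, and highest with the inhibitor, at 115 and 93.6 (1.45 ± 0.35 against no IL-21, adjusted p = 0.064). Nfil3 was at 17.0 and 9.64 RPKM without IL-21, 29.5 and 25.1 with it, and 19.2 and 36.7 with the inhibitor. It passed the filter only through the groups given IL-21. Irf4 stood at 0.283 and 0.458 RPKM with the inhibitor. Zeb2 and Ikzf2 overlapped between the groups. Maf was at 3.51 and 3.88 RPKM without IL-21 and at 0.214 and 2.06 with the inhibitor (-1.30 ± 1.00, adjusted p = 0.61). The comparisons share libraries and are not independent of each other.

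**Figure D2:**
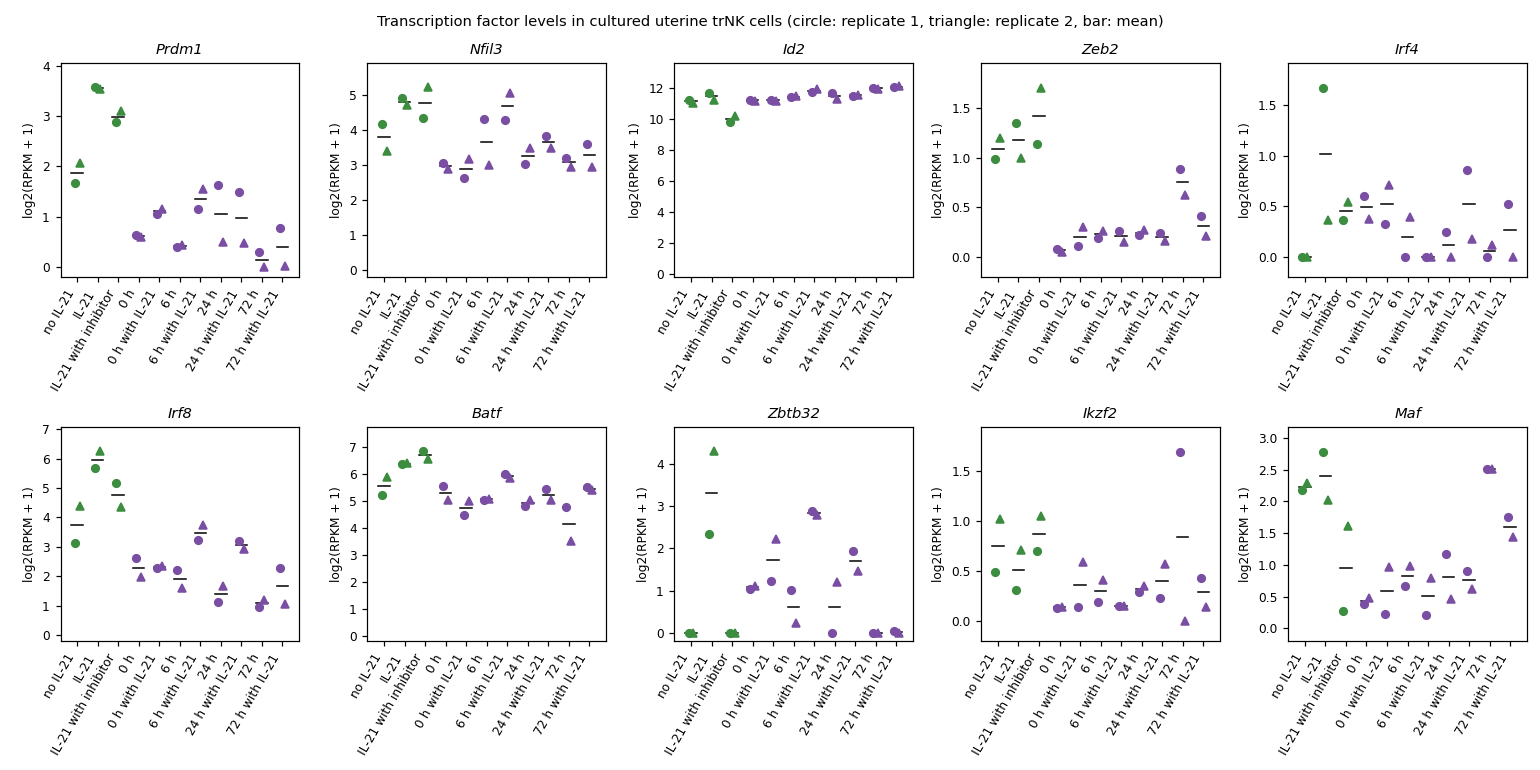
Level of each transcription factor in cultured trNK, as log2(RPKM + 1) on the vertical axis, in the 3-day culture (green) and the time course (purple). Each point is 1 library and each bar the mean of 2. Zbtb32 is at 0 without IL-21 and with the inhibitor in the 3-day culture, and in the time course it is highest at 6 h with IL-21.

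Among the listed pathway genes of the 3-day culture, Ctla4 was at 0.0229 and 0 RPKM without IL-21, 52.5 and 49.7 with it, and 31.0 and 12.8 with the inhibitor. It was called for IL-21 and for both against neither, having passed the filter only through the groups given IL-21, in which it is high. Bcl3, a STAT3 target, rose with IL-21 from 4.13 and 2.90 to 24.3 and 36.4 RPKM (3.29 ± 0.46, adjusted p = 0.042), having passed the filter only through the IL-21 group, and stood at 8.67 and 9.32 with the inhibitor (-1.64 ± 0.43 against IL-21, adjusted p = 0.099). It was the only one of 7 tested STAT3 response genes called for IL-21, where 0.289% of all genes tested were called, and none was for the inhibitor on IL-21, where 2.96% were. Their median was 1.81 for IL-21 and -1.26 for the inhibitor on IL-21, beside -0.017 and -0.028 over all genes tested. Cd160 fell from 25 and 30.9 RPKM with IL-21 to 1.49 and 1.28 with the inhibitor. Havcr2 was highest with the inhibitor, at 41.8 and 55.1 RPKM. None of the 9 tested partners and antagonists was called.

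In the time course, Zbtb32 at 0 h was at 1.04 and 1.17 RPKM in the libraries labelled without IL-21 and at 1.33 and 3.65 in those labelled with it. At 6 h it was at 1.01 and 0.172 RPKM without IL-21 and at 6.47 and 5.92 with it. At 24 h it was at 0 and 1.32 against 2.87 and 1.77, and at 72 h 3 of the 4 libraries had no read and the fourth, with IL-21, had 2. The IL-21 libraries lay above the others at 0 h already, and at 6 and 24 h, as did 30.3% and 39.8% of all genes tested at the latter times. The log2 difference was 3.43 ± 1.77 at 6 h and 1.68 ± 1.66 at 24 h (filterByExpr, adjusted p = 1.00 at both). Between 24 and 72 h Zbtb32 was at least 42.5-fold lower without IL-21, and with IL-21 the ratio of 24 to 72 h was 182 (95% interval 50 to 1507, counting error only). With no IL-21 the 24 h reads all came from 1 library. After 3 days with IL-21 Zbtb32 was thus at 0.0232 and 0 RPKM here and at 4.07 and 18.9 in the other culture. The 2 experiments differ in RNA kit and were not compared by test.

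Irf8 at 0 h overlapped between the groups (3.89 and 4.14 RPKM with IL-21, 5.12 and 2.89 without). It stood apart with IL-21 at 6 h, from 3.59 and 2.01 to 8.40 and 12.3 RPKM, and at 24 h, from 1.18 and 2.20 to 8.08 and 6.66. Neither pair of groups overlapped (1.89 ± 0.55 and 2.01 ± 0.55, filterByExpr, adjusted p = 0.53 and 0.50), and at 72 h they did overlap (0.91 ± 0.54, adjusted p = 0.38). Of genes past the RPKM filter, 30.3% at 6 h and 39.8% at 24 h were also higher with IL-21 without overlap. Batf with IL-21 was at 21.3 and 30.9 RPKM at 0 h, below its control at 46.3 and 31.8. It was above its control at the later times, at 62.5 and 55.9 against 31.3 and 32.9 RPKM at 6 h, 42.5 and 31.4 against 26.7 and 31.3 at 24 h, and 44.2 and 40.8 against 26.3 and 10.3 at 72 h. Its log2 difference was 0.85 ± 0.39 at 6 h (adjusted p = 0.41), 0.24 ± 0.38 at 24 h (0.87) and 1.20 ± 0.39 at 72 h (0.078). DESeq2 called the last (1.17, adjusted p = 0.022). Prdm1 at 0 h was at 0.553 and 0.517 RPKM without IL-21 and at 1.07 and 1.23 with it. At 6 h it was at 0.325 and 0.345 RPKM without and at 1.24 and 1.95 with IL-21 (2.22 ± 1.69, filterByExpr, adjusted p = 1.00), and at 24 and 72 h its groups overlapped.

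Id2 was higher at 72 h than at 24 h with and without IL-21, by less than 2-fold. It went from 3275 and 2565 to 4185 and 3965 RPKM without IL-21 (0.83 ± 0.20, adjusted p = 0.018) and from 2900 and 2992 to 4363 and 4439 with it (0.97 ± 0.20, 0.0077). With filterByExpr the adjusted p was 0.058 and 0.063. Maf stood at 1.24 and 0.376 RPKM at 24 h and 4.70 and 4.71 at 72 h without IL-21 (2.82 ± 0.89, filterByExpr, adjusted p = 0.080), and at 2.38 and 1.70 at 72 h with IL-21. Zeb2 without IL-21 was at 0.165 and 0.205 RPKM at 24 h and 0.849 and 0.539 at 72 h, and with IL-21 at 0.333 and 0.160 at 72 h (72 h IL-21 difference -1.65 ± 0.75, adjusted p = 0.25). Of 10 macrophage markers 8 or 9 were at 0 in each 72 h library, and their sum was 9.19 and 0.0075 RPKM without IL-21 and 67.9 and 27.9 with it. Nfil3 ran from 5.16 to 32.5 RPKM with overlapping groups, Ikzf2 from 0 to 2.22 and Irf4 from 0 to 0.812.

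By edgeR with the RPKM filter 0 of the 3 members tested in the time course (Nfil3, Id2 and Batf) were called in any comparison. The share of all 3503 genes called was 1.97% for IL-21 at 6 h, 1.66% at 24 h and 8.08% at 72 h. It was 0% for 6 against 0 h, 0.0856% for 24 against 6 h, and 14.8% for 72 against 24 h both without and with IL-21. At an unadjusted p under 0.05 there was 1 member for IL-21 at 6 h and at 72 h and for each 72 against 24 h comparison, and 0 in the others. In these 4 comparisons 207, 565, 772 (without IL-21) and 767 (with it) of all 3503 genes had such a p with a fold over 2. That fold was not asked of the members. DESeq2 called 1, Batf for IL-21 at 72 h, and limma-voom 0, and the shares of all genes in those fits are not given here. The difference between the IL-21 effects at 2 times was called for 0 members. The background was 4.17% for 72 against 6 h, 4.22% for 72 against 24 h and 0% for 24 against 6 h. At an unadjusted p under 0.05 there were also 0, where 519, 542 and 41 of all genes had such a p with a fold over 2. Among the list genes, Klrg1 was higher with IL-21 at 72 h (1.72 ± 0.36, adjusted p = 0.013) and Bcl3 was called at 72 h, at 9.31 and 2.05 RPKM with IL-21 against 0.0424 and 0 without.

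**Figure D3:**
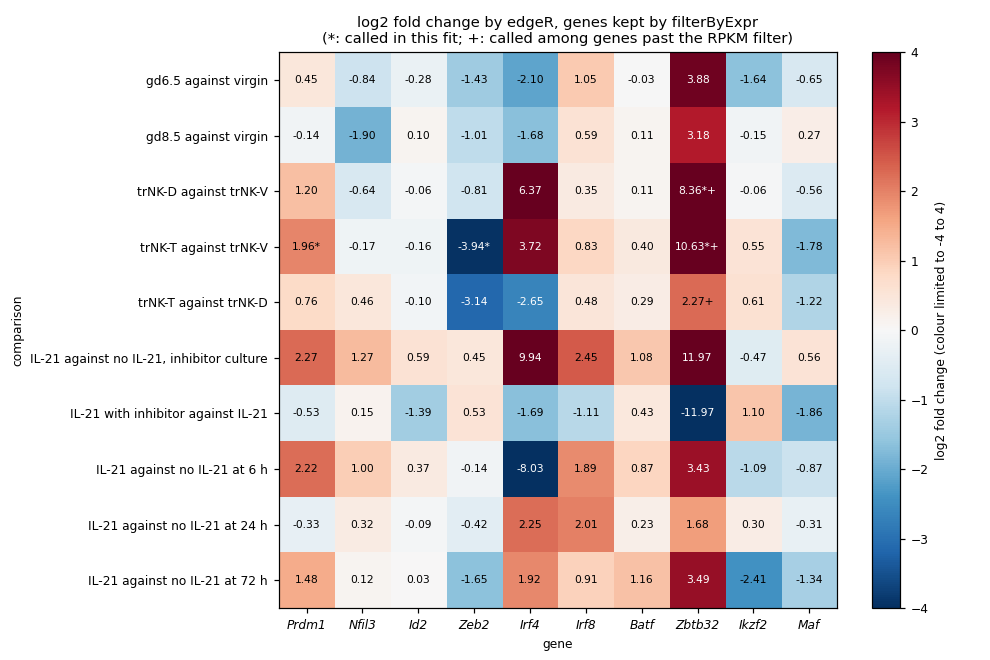
Log2 fold change of each transcription factor (columns) in each comparison (rows) from edgeR with filterByExpr, with the value in each cell and colour limited to -4 to 4. An asterisk marks a call in this fit and a plus a call among genes past the RPKM filter; values against a group with no reads, such as 11.97 for Zbtb32 and 9.94 for Irf4 in culture, depend on the prior count and are not bounds.

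The single-cell matrix placed the factors among cell types. The files labelled virgin and gd8.5 held the same 15175 cell barcodes with no gene in common, so they were joined as 1 pooled sample, which allows no test between stages. Of the cells, 8907 passed the filter and 4171 were removed by its upper limit on genes. With no upper limit, a trNK-like cluster led by division genes (1132 cells) had a median of 3240 genes. A trNK-like cluster with Gzmd and Gzme (1992 cells) had 2991.5, and an unnamed dividing cluster (418 cells) had 3009. These medians lay above the limit, and those of all other clusters below it. The levels given for dividing and terminal cells thus describe only those under the limit. The 8907 cells kept fell into 17 clusters, and 6727 cells got a class name from markers. Levels are counts of unique molecular identifiers (UMIs) scaled to the total UMIs of the cells (CPM), with 95% Poisson intervals that cover counting error only. The 10 factors were left out of the clustering.

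Among the named clusters, Zbtb32 was highest in terminal and dividing trNK-like cells. It was at 111 CPM (101 to 121) in the 901 terminal trNK-like cells and at 101 CPM (88.1 to 114) in a trNK-like cluster of 501 cells led by division genes. In the 2 largest other trNK-like clusters it was at 19.4 CPM (15.2 to 24.5, 1299 cells) and 15.7 CPM (10.9 to 22, 724 cells, with Tcf7 and Cd27 as markers). Its highest level of all, 197 CPM (185 to 209), was in an unnamed cluster of 970 cells led by Tff1, Clic3, Scin and Ctsg. That cluster had 5 of the terminal trNK markers but lacked a raised level of Ncr1 and Klrb1c. The 901 cells named terminal had Tnfrsf9, Gzmd, Gzme and Spp1 as markers, without Scin and Ctsg. At Leiden resolution 0.4, 1 cluster of 1821 cells with all of these markers was named terminal. The name therefore does not set the 901 cells apart as the more terminal. A low-depth unnamed cluster of 277 cells had 88.7 CPM of Zbtb32. In conventional NK-like (cNK-like) cells Zbtb32 was at 13.1 CPM (8.45 to 19.3), which overlaps the 16.1 CPM (7.73 to 29.7) in B-like cells. The levels of these cells and of the trNK-like clusters at 19.4 and 15.7 CPM, which overlap it too, were not told apart from free RNA.

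Prdm1 and Zeb2 had other maxima. Prdm1 was highest in cNK-like cells, at 97.6 CPM (84.1 to 113), and at 37.5 CPM (31.9 to 43.8) in terminal and 30.7 CPM (27.1 to 34.6) in the other trNK-like cells. The trNK-like levels were no higher than the 35.4 CPM in macrophage-like and 46.2 CPM in stromal-like cells beyond counting error, and were not told apart from free RNA. Zeb2 was at 471 CPM in macrophage-like and 302 CPM in cNK-like cells, at 23.5 CPM (20.4 to 27.0) in trNK-like, at 14.5 CPM (11.1 to 18.6) in terminal trNK-like cells and at 6.64 CPM (4.60 to 9.28) in the unnamed 970-cell cluster. Free RNA of macrophages was not tested as a part of these low values.

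Irf8 was highest in cNK-like cells, at 1420 CPM, followed by the terminal trNK-like cells at 1015 CPM and the 970-cell cluster at 998 CPM. The remaining trNK-like clusters had 558 to 875 CPM. Id2 was at 1724 CPM in terminal and 1395 CPM in other trNK-like cells, 1443 CPM in cNK-like and 744 CPM in macrophage-like cells, and lowest in stromal-like cells at 307 CPM. Among trNK-like clusters its lowest level was 1031 CPM in the cells with Tcf7 and Cd27. Nfil3 was at 177 CPM in terminal and 134 CPM in other trNK-like cells. It was at 114 CPM (99.2 to 130) in cNK-like, 106 CPM in macrophage-like and 87.1 CPM in stromal-like cells, and lowest in B-like cells at 30.6 CPM. Batf was at 80.1 CPM in the 970-cell cluster and 56.0 CPM in the dividing cluster, against 36.8 CPM in the 901 cells named terminal.

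Irf4, Ikzf2 and Maf, which were low in bulk RNA, had their highest level in named classes other than trNK-like cells. Irf4 was at 83.9 CPM (62.6 to 110) in B-like cells and at or below 4.32 CPM in each trNK-like cluster. Ikzf2 was at 110 CPM (86.4 to 137) in T-like cells and 21.8 CPM in trNK-like cells. Maf was at 1020 CPM in macrophage-like and 695 CPM in stromal-like cells, 51.1 CPM in trNK-like, 18.5 CPM in terminal trNK-like cells and 7.62 CPM in the 970-cell cluster. One trNK-like cluster of 140 cells with interferon response genes had Maf at 202 CPM. The named class with the highest level was the same in all 5 clustering settings tried for 9 of the 10 genes and in 4 of 5 for Maf. The levels themselves moved. Over all trNK-like cells, terminal included, Zbtb32 was at 64.0 CPM, Zeb2 at 20.5 and Maf at 40.3. With no upper limit on genes they were 117, 11.0 and 14 CPM, and with the limits read as UMIs they were 44.0, 43.6 and 84.5 CPM.

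**Figure D4:**
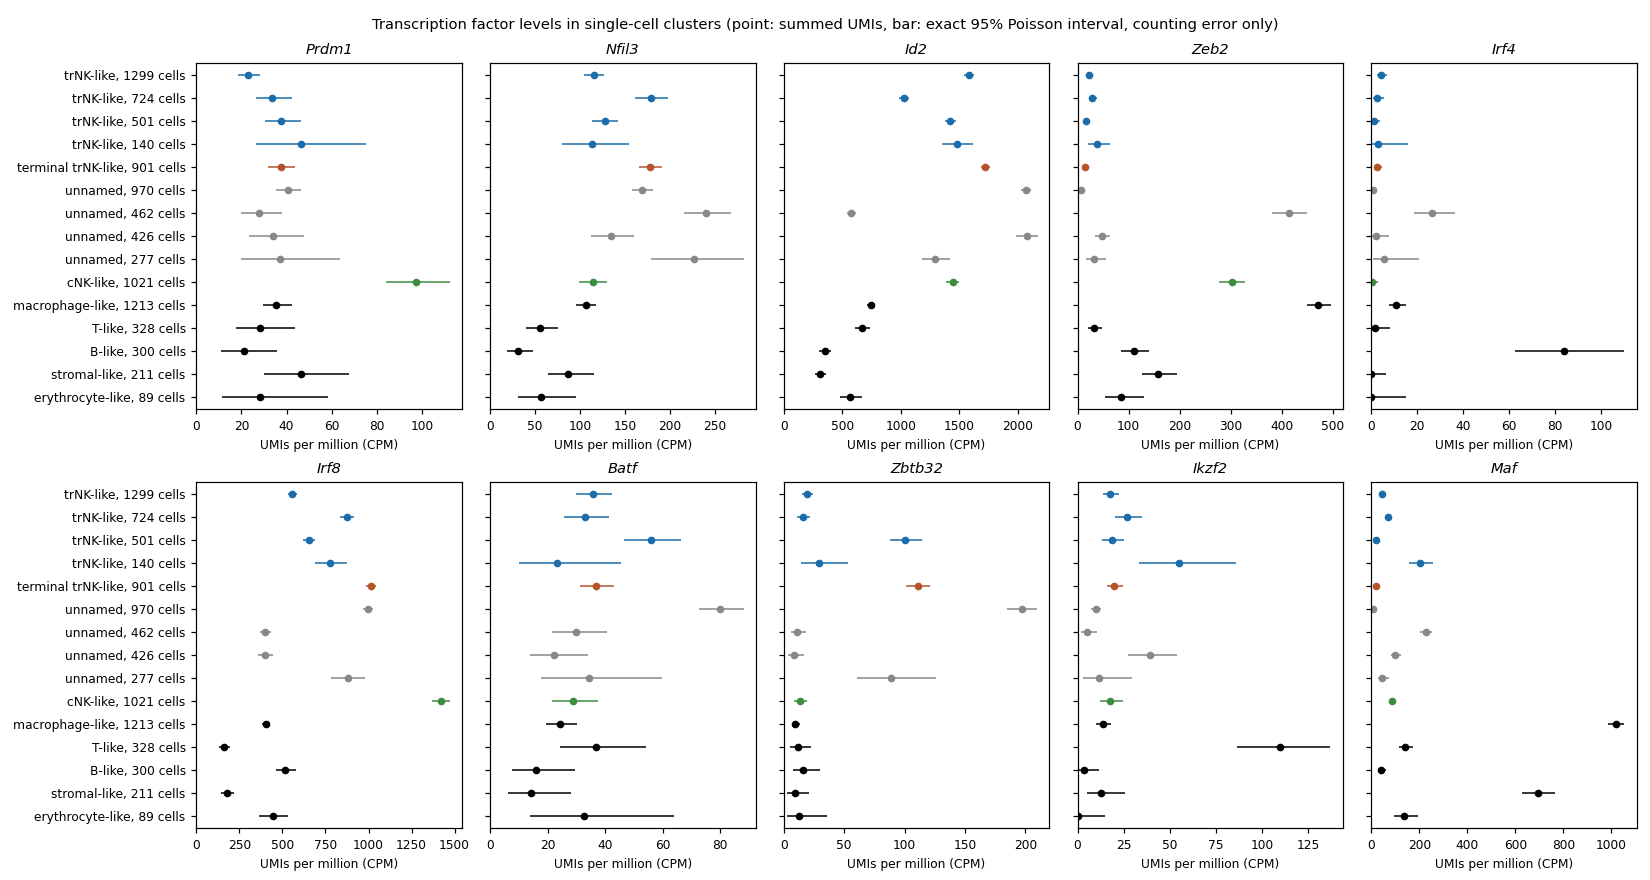
Level of each transcription factor in single-cell clusters, as CPM on the horizontal axis, with exact 95% Poisson intervals for counting error only. Rows are clusters with their class name and number of cells; Zbtb32 peaks in terminal, dividing and the 970-cell unnamed cluster, Zeb2 and Maf in macrophage-like cells, and Irf4 in B-like cells.

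Patterns over the 34 bulk libraries were compared with those of 2662 well expressed genes, after the mean of each experiment was subtracted. This was done for each factor past the RPKM filter in any experiment, and so not for Zeb2, Irf4, Ikzf2 and Maf. Libraries share experiments, treatments and sort gates, so the values describe these libraries only. Zbtb32 was most like Pno1 (Pearson r = 0.891), Tnfrsf9 (4-1BB, used in the sort, 0.851) and Spp1 (0.820). Irf8 was most like Prf1 (perforin, 0.908), Gzmb (granzyme B, 0.849) and Gadd45g (0.838). Prdm1 was most like Idi1 (0.767), Spp1 (0.762) and Gzmb (0.759). The others compared had Litaf, Derl1 and Hsd17b10 (Batf, 0.827 to 0.773), Klra7, Psenen and Hopx (Id2, 0.80 to 0.777) and Fam49b, Bag1 and Rap1b (Nfil3, 0.767 to 0.763).

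Among the 10 factors, the highest r were between Irf8 and Zbtb32 (0.732), Id2 and Maf (0.723), Prdm1 and Irf8 (0.701) and Prdm1 and Zbtb32 (0.660). The lowest was between Zeb2 and Zbtb32 (-0.690). Maf was also positive with Zeb2 (0.584), and Irf8 with Batf (0.600). Irf4 and Ikzf2 had no r beyond 0.356 and 0.331 with any other member.

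**Figure D5:**
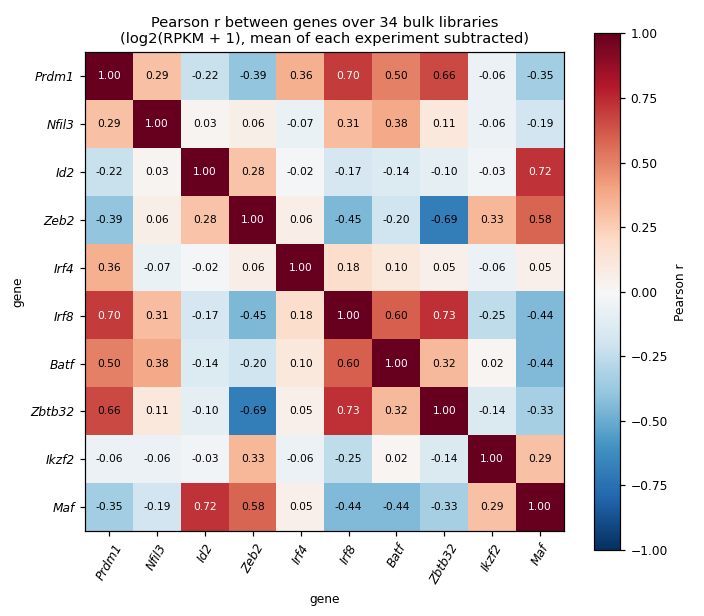
Pearson r between the transcription factors over 34 bulk libraries, from log2(RPKM + 1) with the mean of each experiment subtracted. Prdm1, Irf8 and Zbtb32 are positive with each other, and Zeb2 and Zbtb32 have the lowest value, -0.69.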

How the data were processed

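Bulk RNA-Seq of sorted or cultured uterine trNK (34 libraries, 2 per group) and single-cell RNA-Seq were analysed. The deposited bulk values are raw read counts per gene, made by the authors with HISAT2 2.1.0 and featureCounts on mm10 according to the submitters' processing notes, with a SMART-Seq HT kit except in the time course (Vazyme kit). The deposited single-cell values are UMI counts (BD Rhapsody). Groups came from the labels. RPKM used the exon length in the tables. Counts were tested with edgeR 4.0.16 (TMM, quasi-likelihood, Benjamini-Hochberg over all genes tested) within each experiment, keeping genes whose 2 libraries both exceeded 10 RPKM in at least 1 group (4504, 4683, 4158 and 3503 genes). SE is the log2 fold change divided by the square root of F. Alternatives were filterByExpr, no filter, other size factors, limma-voom 3.58.1, DESeq2 1.42.0, a replicate block and leaving out each library. The fit was tested on simulated data. ATAC samples were not analysed here. No 2 replicates held identical values.

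Single cells with more than 200 and fewer than 2500 genes and under 10% mitochondrial UMIs were clustered in scanpy 1.11.5 (2000 variable genes, 20 components, 20 neighbours, Leiden resolution 0.8), without the 10 genes and the listed genes reported. Classes were named from fixed markers with thresholds set after the clusters were seen, and 24.5% of cells stayed unnamed. No doublet caller was applied. The study states these limits for UMI counts. They were read here as numbers of genes, which kept 8907 cells, while limits on UMIs kept 4338.

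The 10 genes and the lists were chosen with earlier results of these data known. Named were all 10 genes, listed genes called with libraries that did not overlap (at most 6 per list and comparison) or set beside a result, and the 3 most similar genes per factor compared. The leave-one-out fits with filterByExpr and the ratios of summed reads, also from single libraries, were added after the data were seen. Library totals were 11862089 to 66468883 counts. With 2 libraries per group, spread rather than depth limits precision for all but the lowest genes. A listed gene is not reported here.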

Additional observations from a re-analysis of the deposited data

Results flagged for a closer look

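Of 22 listed pathway and marker genes tested in the time course, 2 had an IL-21 effect that differed between 72 and 6 h by the test of the difference itself, where 4.17% of all genes were called, and 1 of them also between 72 and 24 h, where 4.22% were. For Klrg1, a receptor of mature NK cells, the effect at 72 h exceeded that at 6 h by 2.05 ± 0.49 on the log2 scale (edgeR, adjusted p = 0.041). Klrg1 was at 193 and 88.7 RPKM with IL-21 and 28.2 and 47.5 without at 72 h, and at 70.4 and 103 against 102 and 109 at 6 h. For Itgax (CD11c), listed as a dendritic cell marker and also expressed by activated NK cells, the effect at 72 h exceeded that at 6 h by 2.18 ± 0.49 (adjusted p = 0.028) and that at 24 h by 1.95 ± 0.49 (0.047). Itgax was at 34.6 and 20.7 RPKM with IL-21 and 8.10 and 13.8 without at 72 h. No transcription factor of the 10 was flagged.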

How the results depend on the processing

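Counts of the 10 factors called (higher or lower) had the values given under RLE scaling in every comparison. With no filter on counts they were 2 for gd6.5 and 2 for gd8.5 against virgin, 1 for gd8.5 against gd6.5, 2 for trNK-D and 3 for trNK-T against trNK-V, 2 for trNK-T against trNK-D, 3 for IL-21 in the 3-day culture, 1 for the inhibitor on IL-21, 2 for both against neither, and 2 and 1 for 72 against 24 h without and with IL-21. With filterByExpr they were 3 for trNK-T against trNK-V (Zeb2, Zbtb32 and Prdm1) and 0 for trNK-T against trNK-D. DESeq2 gave 1 for gd8.5 against virgin, 2, 1 and 2 in the 3-day culture in the order above, and 1 for IL-21 at 72 h. limma-voom gave 1 for gd6.5 against virgin (Zbtb32, 6.30, adjusted p = 0.045) and 1 for both against neither (Batf). Shares of all genes called with no filter, by DESeq2 and by limma-voom are not given, so these counts lack a background. The cause of the changes in count was not tested. Leaving out 1 library in turn gave counts of 0 to 2 for gd6.5 against virgin, 0 to 3 for gd8.5 against virgin (3 without virgin replicate 2, Zbtb32, Irf8 and Nfil3), 0 to 1 for trNK-D against trNK-V, 1 to 2 for trNK-T against trNK-V (leave-one-out fits with filterByExpr included), 0 to 1 for trNK-T against trNK-D, and 0 to 1 for IL-21 at 72 h, for 72 against 24 h with and without IL-21 and for the IL-21 effect at 72 against 24 h. A lone library was assumed to vary like the other groups. Counts in the other comparisons stayed at 0. Batf gave the call for IL-21 at 72 h without 72 h replicate 1 (1.89, adjusted p = 0.0032) and that for the IL-21 effect at 72 against 24 h (1.63, 0.025), and without the same library also for 72 against 24 h without IL-21. Irf8 at gd8.5 against virgin ranged from -0.035 without virgin replicate 1 to 1.62 without virgin replicate 2. Batf at 72 against 24 h without IL-21 ranged from -1.04 without 72 h replicate 1 to 0.10 without 72 h replicate 2, and Irf4 in trNK-D against trNK-V turned to -3.20 without trNK-D replicate 2, a value that depends on the prior count since 0 and 2 reads remain. With the replicate block the count was 1 in each subset comparison and 0 elsewhere, as without it. Same-numbered libraries correlated from -0.30 to 0.10 in gestation, 0.01 to 0.41 in the subsets, -0.52 to 0.61 in the 3-day culture and -0.39 to 0.46 in the time course. In no experiment was every pair above 0.1, and no label ties a number to a sort or day, so the numbers were not taken as pairs. Without subtraction of experiment means, 4 of the 18 most similar genes stayed. Low counts limit Prdm1, Irf4, Ikzf2, Maf and Zeb2, and Zbtb32 in its low groups.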
